A study of Neurospora crassa with 24 samples.

Results

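The 8 genes described here code for the enzymes that mark the clock protein FRQ and for the cAMP pathway of *Neurospora crassa*, a filamentous fungus long used to study circadian rhythms. They were taken by name and by no rule on their values, although earlier results of these data were known. They include the casein kinase 1 gene *ck-1a* (NCU00685), the casein kinase 2 subunit genes *cka* (NCU03124) and *ckb-1* (NCU05485), and the checkpoint kinase gene *prd-4* (NCU02814). The others are the F-box gene *fwd-1* (NCU04540), the adenylyl cyclase gene *cr-1* (NCU08377), and the protein kinase A genes *mcb* (NCU01166) and *pkac-1* (NCU06240). They are 8 of the 9730 genes in the tables, and all 8 had values above 0 in every library and passed the filter on low values.

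The samples were 12 libraries of ΔMSN1, strain FGSC #11345 with a knockout of msn-1 (NCU02671), and 12 libraries of WT, strain FGSC #2489, the wild type. Each library came from 1 liquid culture in glucose medium that was kept for 2 days in cycles of 11 h of light and 11 h of darkness and then harvested every 2 h between 0 and 22 h of darkness. A culture therefore stood for 1 strain at 1 time, so p-values measure the spread between single cultures around each fit, and nothing in the labels tells whether ΔMSN1 was 1 clone. The cultures were transferred in a staggered way so that all could be harvested within 10 h. Comparing both strains at matched times asked whether these transcripts depend on *msn-1*, and the time courses asked whether they change or cycle in darkness.

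In the *Neurospora* clock, FRQ represses the white collar complex that drives its own gene, and kinases add phosphates to FRQ through the day. CK-1a binds FRQ and phosphorylates it together with casein kinase 2, and PRD-4 does so after DNA damage. Phosphorylated FRQ is bound by FWD-1, the substrate-binding part of an SCF ubiquitin ligase that sends FRQ to degradation. Protein kinase A, released when cAMP made by CR-1 binds its regulatory subunit MCB, also phosphorylates FRQ. In the yeast *Saccharomyces cerevisiae*, protein kinase A restrains the stress factors Msn2 and Msn4, relatives of MSN1.

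The libraries held 2415479 to 9829687 estimated counts in ΔMSN1 and 2732470 to 8094126 in WT. Levels are given below as CPM, the counts relative to the library total, scaled by TMM, edgeR's factor that evens out the bulk of genes between libraries. The TMM factors were 0.838 to 1.26 in ΔMSN1 (median 1.07) and 0.859 to 1.10 in WT (median 0.932). Without them the median of 7310 genes moved to a log2 ratio of 0.19, against 0.01 with them, so every strain difference is relative to that shift. The label check held: *msn-1* was at 0 in 11 of 12 ΔMSN1 libraries and at most 0.0396 CPM in the other, against 27.7 to 50.6 CPM in WT. Libraries also differed in a length trend, the slope of log2 level on log2 gene length relative to the other libraries. It ran between −0.309 (16 h) and 0.203 (8 h) in ΔMSN1 and between −0.0949 (0 h) and 0.124 (22 h) in WT. Markers of conidia, the asexual spores, summed to 683 to 4994 CPM in ΔMSN1 (median 2054) and 913 to 6608 CPM in WT (median 3768). The sum was mostly *eas*, which averaged 1448 CPM in ΔMSN1 and 2584 CPM in WT, and *con-8*. Means of *con-8* (773 and 756 CPM) and *fl* (24.2 and 21.5 CPM) were slightly higher in ΔMSN1. Those of *con-10* (76.7 and 104 CPM) and *con-6* (4.07 and 6.87 CPM) were lower. In bulk RNA, fewer cells of a type and less RNA per cell cannot be told apart. The labels name a sequencing lane only for ΔMSN1, so strain and lane cannot be told apart either.

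The 8 transcripts spanned a wide range of levels, and their order was the same in both strains apart from 1 neighbouring pair. The deposited values behave as if scaled per gene length, so the levels may be compared between genes, on the TMM-scaled CPM scale, only as far as that holds. *ck-1a* was the most abundant, at 311 ± 16.7 CPM in ΔMSN1 and 318 ± 24.6 CPM in WT (SD, n = 12 each), above 95.7% of the 9730 genes in the tables in both strains. *cka* followed with 125 ± 11.5 CPM in ΔMSN1 and 120 ± 10.7 CPM in WT, then *ckb-1* with 71.2 ± 5.28 CPM in ΔMSN1 and 62.8 ± 6.65 CPM in WT. *mcb* lay at 53.6 ± 5.06 CPM in ΔMSN1 and 53.8 ± 5.67 CPM in WT. The ranges of *ck-1a* and *cka*, and of *cka* and *ckb-1*, did not overlap in either strain, whereas those of *ckb-1* and *mcb* did in WT and not in ΔMSN1. The remaining 4 genes were below every library of *mcb*. *prd-4* averaged 23.6 ± 4.92 CPM in ΔMSN1 and 21.8 ± 2.90 CPM in WT. *fwd-1* averaged 17.2 ± 4.33 CPM in ΔMSN1 and 16.5 ± 2.59 CPM in WT, and *pkac-1* 16.8 ± 4.01 CPM in ΔMSN1 and 17.4 ± 2.53 CPM in WT. *cr-1*, the enzyme that makes cAMP, was the lowest, with 10.5 ± 2.90 CPM in ΔMSN1 and 9.54 ± 1.80 CPM in WT. The ranges of *prd-4*, *fwd-1* and *pkac-1* overlapped in both strains. Within single libraries, *prd-4* was above *fwd-1* in all but WT at 16 h (18.5 against 20.7 CPM). It was above *pkac-1* in all but WT at 6 h (19.0 against 21.4 CPM) and 14 h (19.1 against 20.2 CPM). *fwd-1* and *pkac-1* had no steady order. In ΔMSN1 the range of *cr-1* overlapped with those of *fwd-1* and *pkac-1*. It ended there at 14.2 CPM, just under the lowest *prd-4* library at 14.5 CPM. In WT it ended at 12.43 CPM, just under the lowest *pkac-1* library at 12.46 CPM.

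**Figure D1:**
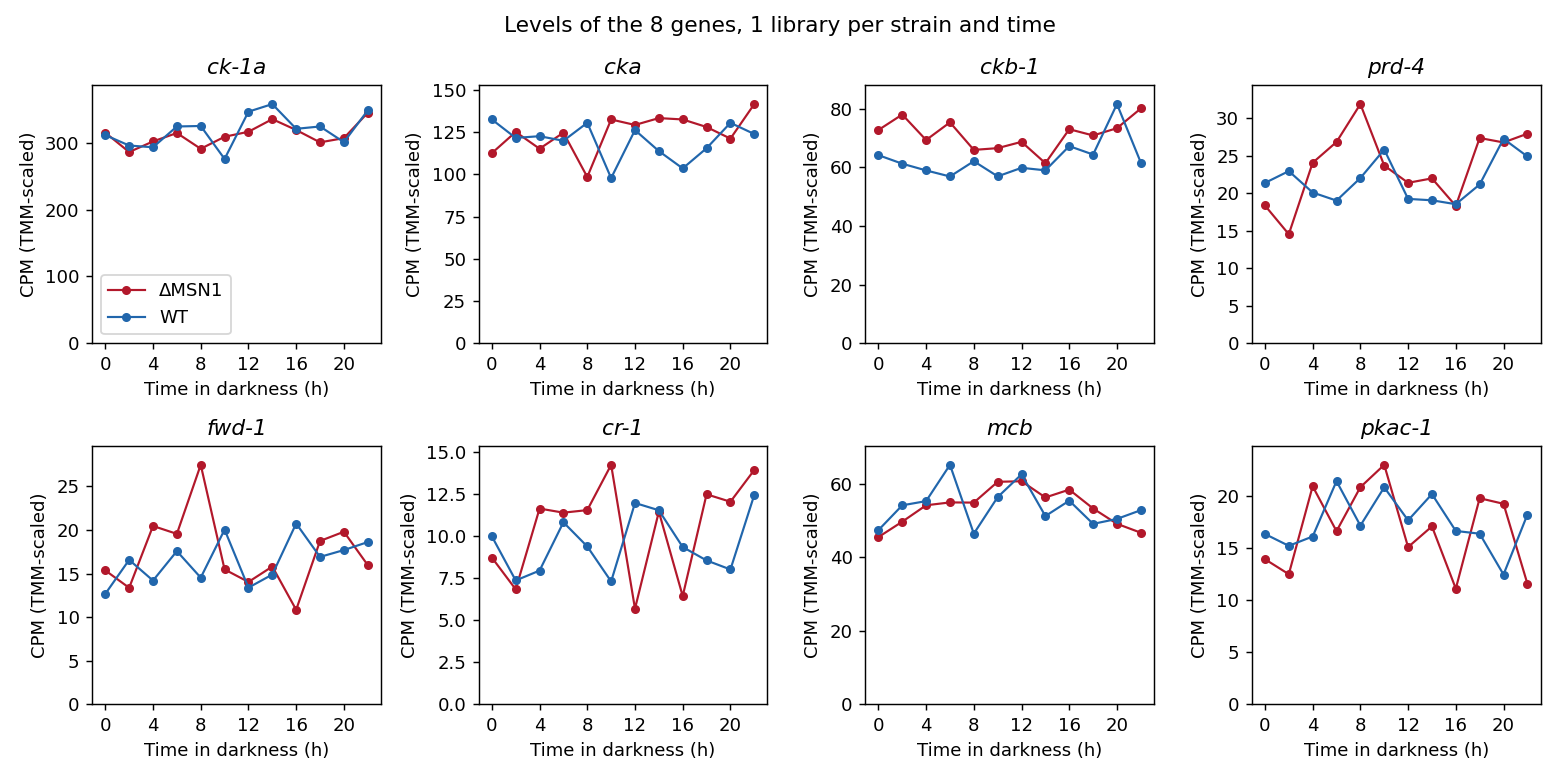
TMM-scaled CPM of each gene (vertical axes, from 0) against hours in darkness (horizontal axes), with ΔMSN1 in red and WT in blue. Each point is 1 library. *ck-1a*, *cka*, *ckb-1* and *mcb* run nearly flat, whereas *prd-4*, *fwd-1*, *cr-1* and *pkac-1* move more from library to library, the more so in ΔMSN1.

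The kinases that act on FRQ came first in the strain comparison. *ck-1a* had 286 CPM in its lowest ΔMSN1 library (2 h), a median of 311 and 344 in its highest (22 h), against 275 (10 h), 322 and 357 CPM (14 h) in WT. The strains overlapped almost fully, and *ck-1a* was higher in ΔMSN1 at 4 of 12 times. The log2 fold change was −0.03 ± 0.05 (SE), with a 95% interval between −0.14 and 0.08 and an adjusted p of 0.738 in edgeR's quasi-likelihood test. The interval spans 0.906 to 1.06 times the WT level, so a change of the size seen for *ckb-1* lay outside it.

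Casein kinase 2 is built of the catalytic subunit encoded by *cka* and regulatory subunits, of which *ckb-1* encodes 1. *cka* had 98.5 (8 h), 127 and 142 CPM (22 h) as its lowest, median and highest in ΔMSN1, against 97.8 (10 h), 122 and 133 CPM (0 h) in WT. The ranges overlapped over nearly their whole width, and the log2 fold change was 0.05 ± 0.08 (interval −0.11 to 0.21, adjusted p = 0.660 by edgeR). *ckb-1* had 61.4 (14 h), 71.7 and 80.0 CPM (22 h) in ΔMSN1, against 56.9 (6 h), 61.4 and 81.5 CPM (20 h) in WT. It was higher in ΔMSN1 at 11 of 12 times, all except 20 h, where WT had its highest value, although the ranges overlapped. *ckb-1* rose in ΔMSN1 by 13.7%, a log2 fold change of 0.19 ± 0.06 with an interval between 0.06 and 0.32 and an adjusted p of 0.0411 by edgeR. It was the only one of the 8 genes called, against 21.8% of all 7310 genes tested, and 11.9% called in the same direction. The call lay close to the threshold. It was lost with DESeq2's size factors (adjusted p = 0.0716), with DESeq2 itself (0.0941), with values multiplied by gene length (0.0525), and when the libraries of any time other than 16 or 20 h were left out (0.0548 to 0.116), while the fold change stayed between 0.16 and 0.20. The ratio of *ckb-1* to *cka* had a median of 0.583 in ΔMSN1 (0.460 to 0.669) and 0.500 in WT (0.474 to 0.649), with overlapping ranges.

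PRD-4 is the *Neurospora* relative of checkpoint kinase 2. *prd-4* had 14.5 (2 h), 23.9 and 31.8 CPM (8 h) in ΔMSN1, against 18.5 (16 h), 21.3 and 27.2 CPM (20 h) in WT. Its ΔMSN1 libraries reached both below and above all WT libraries. The log2 fold change was 0.11 ± 0.09 (interval −0.09 to 0.30, adjusted p = 0.449 by edgeR).

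*fwd-1*, which encodes the receptor of phosphorylated FRQ, had 10.8 (16 h), 15.9 and 27.5 CPM (8 h) in ΔMSN1, against 12.7 (0 h), 16.7 and 20.7 CPM (16 h) in WT. Here too the ΔMSN1 range enclosed the WT range. The log2 ratio of ΔMSN1 to WT was −0.94 at 16 h and 0.92 at 8 h, the extremes among the 12 times, and these 2 ΔMSN1 libraries also had the lowest and the highest length trend. Over all times the log2 fold change was 0.08 ± 0.12 (interval −0.18 to 0.34, adjusted p = 0.698 by edgeR), and it turned to −0.02 without the 8 h libraries.

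Of the cAMP pathway, *cr-1* had 5.67 (12 h), 11.5 and 14.2 CPM (10 h) in ΔMSN1, against 7.29 (10 h), 9.35 and 12.4 CPM (22 h) in WT. The ΔMSN1 libraries fell into 3 low ones (2, 12 and 16 h), 1 between (0 h) and the rest at or above 11 CPM, and the WT libraries lay across that gap. The log2 fold change of 0.18 ± 0.14 (interval −0.11 to 0.47, adjusted p = 0.376 by edgeR) was nearly as large as that of *ckb-1*, with an SE more than 2 times as large. With the length trend taken out of each library it was 0.09. *cr-1* spans 9357 bp, longer than 99.9% of the genes of known length with a mean of at least 5 CPM.

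*mcb*, the regulatory subunit that holds protein kinase A inactive, had 45.4 (0 h), 54.5 and 60.6 CPM (12 h) in ΔMSN1, against 46.4 (8 h), 53.4 and 65.1 CPM (6 h) in WT. The ranges coincided, with a log2 fold change of −0.0037 ± 0.06 (interval −0.13 to 0.12, adjusted p = 0.979 by edgeR). *pkac-1*, a catalytic subunit of the kinase, had 11.1 (16 h), 16.9 and 23.0 CPM (10 h) in ΔMSN1, against 12.5 (20 h), 16.9 and 21.4 CPM (6 h) in WT. Its medians were alike and its ΔMSN1 range was the wider, with a log2 fold change of −0.04 ± 0.11 (interval −0.27 to 0.19, adjusted p = 0.820 by edgeR). *mcb* exceeded *pkac-1* in every library, by a median of 3.28 times in ΔMSN1 (2.55 to 5.25) and 3.01 times in WT (2.53 to 4.04). The second catalytic gene, *pkac-2*, also exceeded *pkac-1*, by a median of 3.05 times in ΔMSN1 and 3.03 times in WT. *pkac-2* averaged 51.1 CPM in ΔMSN1 and 51.3 CPM in WT, close to *mcb* at 53.6 and 53.8 CPM. The ratio of *mcb* to *pkac-1* leaves out *pkac-2*, so it does not show an excess of regulatory over catalytic transcripts.

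Over the 8 genes the median log2 fold change was 0.07, against 0.01 over all tested genes, with 5 positive and 3 negative. When library totals replaced TMM, all 8 were positive with a median of 0.24, against a shifted median of 0.19 over all genes, so the signs of *ck-1a*, *mcb* and *pkac-1* turned with the scaling, and *cka* (0.22) passed the test beside *ckb-1* (0.36).

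**Figure D2:**
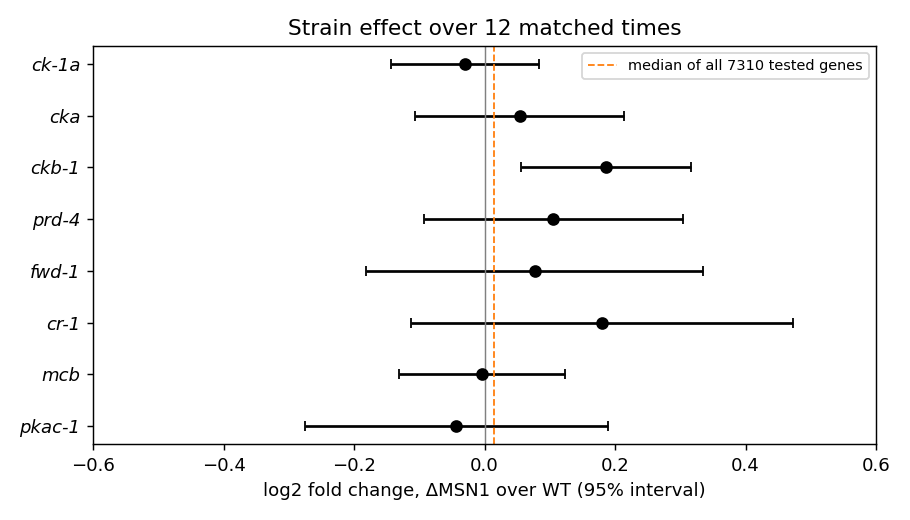
Log2 fold change of each gene, ΔMSN1 over WT, over 12 matched times (horizontal axis), with 95% intervals as bars and the genes down the page. The dashed line is the median of all tested genes (0.01). The interval of *ckb-1* (0.06 to 0.32) lies above 0, and the other 7 include 0.

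The strain effect was also fitted separately in early darkness (0 to 10 h) and late darkness (12 to 22 h), over 6 matched times each. In early darkness, 0 of the 8 genes passed the edgeR test, against 8.25% of all genes, and 1 had an unadjusted p under 0.05. That gene was *ckb-1*, at a log2 fold change of 0.25 ± 0.09 with all 6 times higher in ΔMSN1 (adjusted p = 0.0925, and 0.0474 with the length trend taken out). *cr-1* had 0.31 ± 0.18 (adjusted p = 0.317) and *fwd-1* 0.21 ± 0.16 (adjusted p = 0.462) over the same 6 times. Without the 10 h libraries *cr-1* was at 0.16, and it was at 0.14 with the length trend taken out. Without the 8 h libraries *fwd-1* was at 0.055, and without those at 10 h at 0.35. With library totals both were larger, at 0.54 for *cr-1* and 0.44 for *fwd-1*. In late darkness, 0 of 8 passed, against 12% of all genes, 0 had an unadjusted p under 0.05, and *ckb-1* stood at 0.12 ± 0.09 (adjusted p = 0.412). The difference between late and early darkness, tested as its own contrast, passed in 0 of 8 genes, against 0.192% of all genes. It was −0.12 ± 0.12 for *ckb-1* (interval −0.38 to 0.14), so the smaller value in late darkness was within the error. The widest intervals were those of *cr-1* (−0.88 to 0.29) and *fwd-1* (−0.80 to 0.22).

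Within a strain, late darkness was set against early darkness. In ΔMSN1, 0 of 8 genes passed the edgeR test, against 0.041% of all genes, with log2 differences between −0.22 (*fwd-1*) and 0.16 (*cka*). In WT, 0 of 8 passed, against 2.17% of all genes, with log2 differences between −0.07 (*pkac-1*) and 0.26 (*cr-1*). In neither strain did any of the 8 reach an unadjusted p under 0.05. By DESeq2 0 passed as well, with 1 of the 8 at an unadjusted p under 0.05 in WT. The intervals in ΔMSN1 were narrow for *ckb-1* (−0.19 to 0.20) and wide for *cr-1* (−0.51 to 0.41).

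What set the genes apart from each other was how steady they were over the time course. *ck-1a* had a coefficient of variation (SD over mean) of 5.37% in ΔMSN1 and 7.72% in WT. In ΔMSN1, 0.0821% of tested genes had a lower one, and in WT 3.17%. *cka* varied by 9.22% in ΔMSN1 and 8.93% in WT, *ckb-1* by 7.41% and *mcb* by 9.43% in ΔMSN1, against 10.6% and 10.5% in WT. These 4 genes lay far under the median of tested genes, which was 20.0% in ΔMSN1 and 16.6% in WT. Abundant transcripts vary less through counting alone, so each was also set beside genes within 2-fold of its own level. Of those, 0.184% had a lower coefficient than *ck-1a* in ΔMSN1 and 4.56% in WT, and for *cka* the shares were 7.08% in ΔMSN1 and 10.8% in WT. For *ckb-1* they were 2.4% in ΔMSN1 and 20.4% in WT, and for *mcb* 8.35% in ΔMSN1 and 20.1% in WT, so in WT these 2 stood out less from genes of like level.

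The other 4 genes varied more, each above the median of tested genes in ΔMSN1, whereas in WT only *cr-1* exceeded it. Of genes within 2-fold of their own level, 65.0% (*prd-4*) to 79.0% (*cr-1*) had a lower coefficient in ΔMSN1. In WT the shares were 36.9% (*prd-4*) to 60.1% (*cr-1*). In both strains these 4 thus lay nearer the middle of genes of like level than the 4 steady genes. *prd-4* varied by 20.9% in ΔMSN1 and 13.3% in WT, *pkac-1* by 23.8% in ΔMSN1 and 14.5% in WT, *fwd-1* by 25.1% in ΔMSN1 and 15.7% in WT, and *cr-1* by 27.5% in ΔMSN1 and 18.9% in WT. In ΔMSN1 each of the 4 had the libraries at 2 and 16 h among its 3 lowest, and these 2 libraries had the most negative length trends. With the length trend taken out, the coefficient of *cr-1* in ΔMSN1 was 14.2%, of *prd-4* 16.7%, of *fwd-1* 18.0% and of *pkac-1* 19.2%, against a median of 17.6% over tested genes. The same step raised *ck-1a* to 10.9% and *mcb* to 13% in ΔMSN1, and left *cka* at 9.20% and *ckb-1* at 7.31%, so *mcb* then lay close to *cr-1*. In WT it moved the 4 steady genes little, to between 7.34% for *ck-1a* and 10.5% for *ckb-1*.

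**Figure D3:**
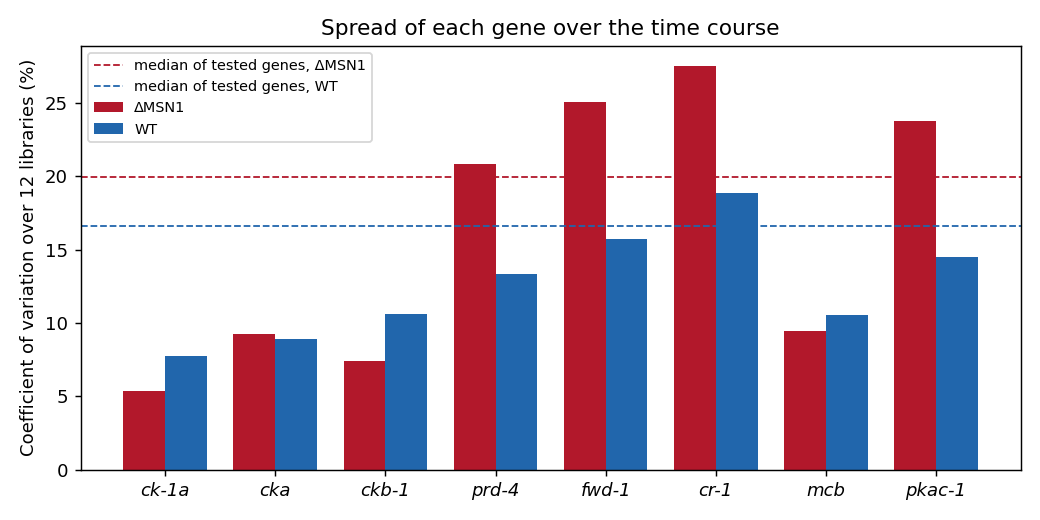
Coefficient of variation over 12 libraries in percent (vertical axis) of each gene, ΔMSN1 in red to the left of WT in blue. Dashed lines are the medians of tested genes, 20.0% in ΔMSN1 and 16.6% in WT, and *ck-1a*, *cka*, *ckb-1* and *mcb* lie under both.

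The mean log2 deviation of the 8 genes from their own strain means shows the same libraries. In ΔMSN1 it was −0.25 at 2 h, −0.23 at 16 h, −0.15 at 0 h and −0.14 at 12 h, and between 0.02 and 0.15 at all other times. In WT it stayed between −0.10 (4 h) and 0.13 (22 h). The low means in ΔMSN1 were not shared by all 8 genes. Above their own means there were 2 of the 8 at 2 h, 4 at 16 h, 2 at 0 h and 3 at 12 h. The length trend of the same ΔMSN1 libraries was −0.260 at 2 h, −0.309 at 16 h, −0.0870 at 0 h and −0.137 at 12 h. The ΔMSN1 libraries at these 4 times held 2415479 to 3994228 counts, and the other 8 held 2458212 to 9829687. The part of depth in these deviations was not tested, nor was that of the length trend beyond the fits with the trend taken out.

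**Figure D4:**
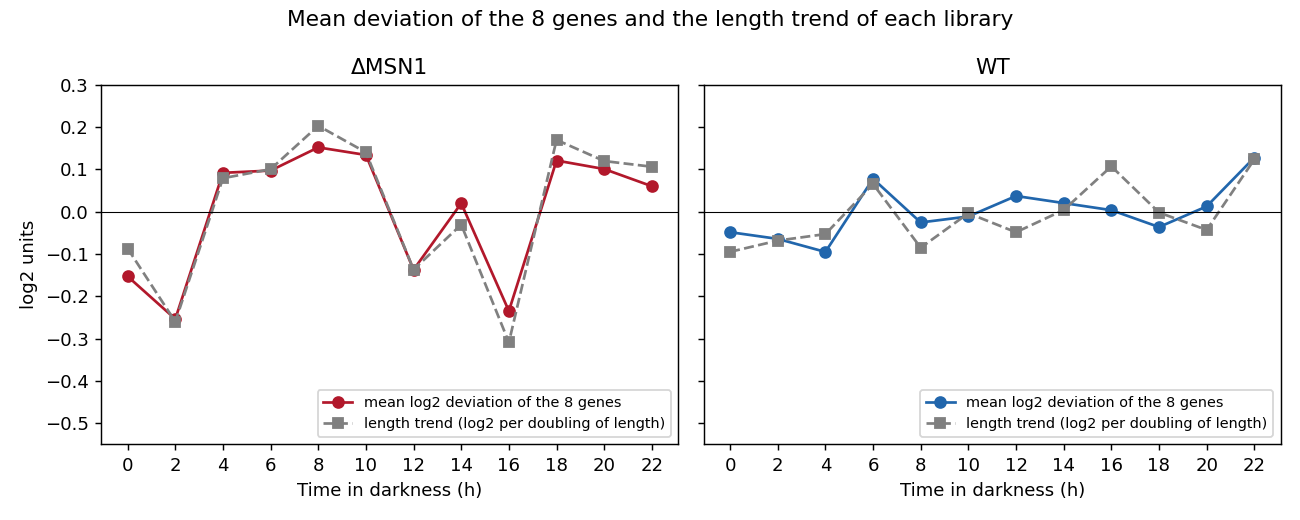
Mean log2 deviation of the 8 genes from their strain means (solid) and the length trend of each library in log2 units per doubling of gene length (grey, dashed), against hours in darkness, ΔMSN1 left and WT right. In ΔMSN1 both dip at 0, 2, 12 and 16 h, to −0.25 and −0.260 at 2 h.

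Rhythms were fitted as waves of 22, 11 and 7.3 h, the circadian period of *Neurospora* and the second and the third harmonic of it. Tested together at a false discovery rate of 0.1, 0 of the 8 genes passed in ΔMSN1, against 0.041% of all genes, and 0 passed in WT, against 0.318% of all genes. By edgeR no gene of the 8 reached an unadjusted joint p under 0.05 in either strain, and DESeq2 and limma-voom called 0 of them too. The smallest joint p in ΔMSN1 was 0.137, for *fwd-1*, and the smallest in WT 0.192, for *cr-1*. The fit of 6 harmonic terms on 12 libraries called few genes of any kind.

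The fitted waves are therefore given as sizes only. In ΔMSN1 the 11 h wave was the strongest for *prd-4* (1.53-fold between fitted peak and trough, peak at 7.91 h), *fwd-1* (1.52-fold, 7.59 h), *cr-1* (1.44-fold, 8.33 h) and *pkac-1* (1.36-fold, 8.12 h). Of these, *prd-4* had an unadjusted p of 0.0462 for that wave (adjusted p = 0.433 by edgeR). An 11 h wave was the strongest for 48.3% of all genes in ΔMSN1, with a median fold of 1.29, so these 4 genes shared what was common in that strain. With the length trend taken out, the 11 h wave of *cr-1* was 1.07-fold, of *pkac-1* 1.19-fold, of *fwd-1* 1.29-fold and of *prd-4* 1.39-fold. For *ck-1a*, *cka*, *ckb-1* and *mcb* the 11 h wave in ΔMSN1 was between 1.01 and 1.11-fold, below the median of all genes. With the length trend taken out, that of *ck-1a* became 1.25-fold, its strongest wave and above the median of 1.23 for all genes, that of *mcb* 1.2-fold, of *cka* 1.11-fold and of *ckb-1* 1.05-fold. *mcb* had its strongest wave at 22 h (1.26-fold, highest at 11.4 h, with an adjusted p of 0.723 by edgeR).

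In WT, *cr-1* had a 7.3 h wave of 1.52-fold with peaks from 6.49 h onward (unadjusted p = 0.0362, adjusted p = 0.523 by edgeR). Its highest values were 10.8, 12.0, 11.5 and 12.4 CPM at 6, 12, 14 and 22 h, and it had 8.00 CPM at 20 h. With the length trend taken out the wave was 1.44-fold (unadjusted p = 0.0551). In ΔMSN1 the 7.3 h wave of *cr-1* was 1.10-fold. *prd-4* had an 11 h wave of 1.33-fold in WT (highest at 9.69 h, with an unadjusted p of 0.0413 and an adjusted p of 0.697 by edgeR), with its high values of 25.8 and 27.2 CPM at 10 and 20 h. The study lists *pkac-1* among its genes of the third harmonic, from a WT series not analysed here. It assigned each gene 1 best period, unlike the fit used here, and reported smaller amplitudes and fewer detected genes in a repeat WT series. The WT libraries used here are labelled as new and may be that repeat, so the smaller amplitudes may apply to them. In the libraries used here *pkac-1* had a 7.3 h wave of 1.35-fold in ΔMSN1 and 1.14-fold in WT, with unadjusted p of 0.198 and 0.556 by edgeR. Its strongest wave in WT was that of 22 h (1.33-fold, highest at 9.66 h, with an unadjusted p of 0.0958). *ckb-1* also had its strongest WT wave at 22 h (1.21-fold, peak at 18.8 h), near the median of 1.22 for all genes. The strains' rhythms, compared in 1 model, differed in 0 of the 8 genes by edgeR, against 0.0137% of all genes, with 0 at an unadjusted p under 0.05.

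**Figure D5:**
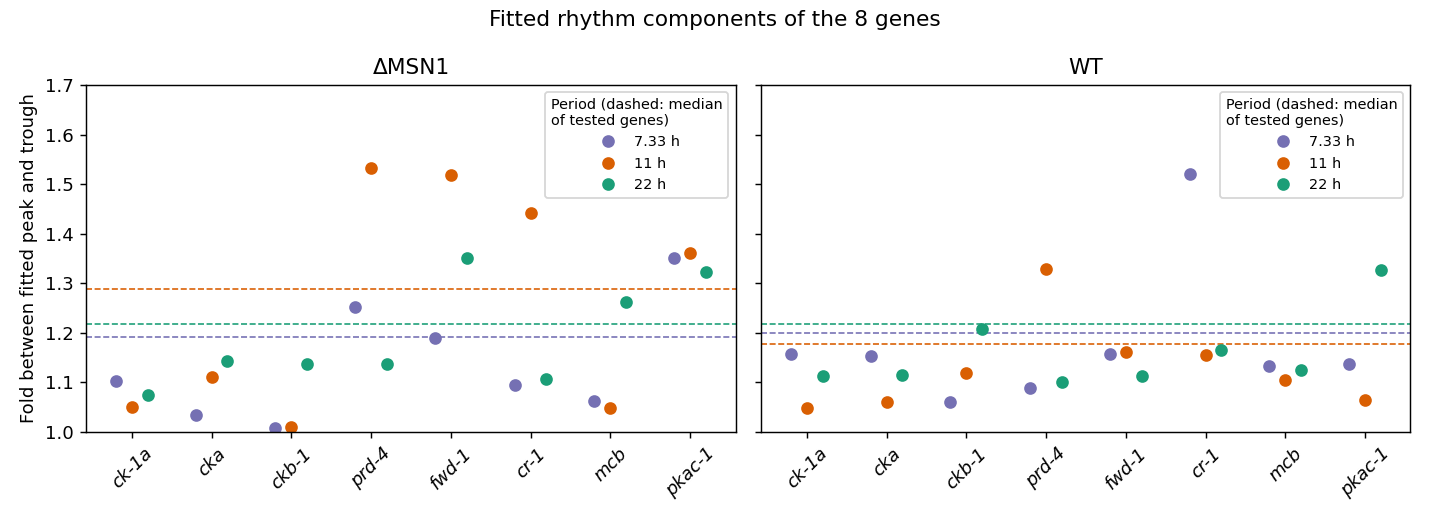
Fold between fitted peak and trough (vertical axis, from 1) of the 7.3, 11 and 22 h waves of each gene, ΔMSN1 left and WT right. Dashed lines are medians of tested genes. In ΔMSN1 the 11 h waves of *prd-4*, *fwd-1*, *cr-1* and *pkac-1* (1.36 to 1.53) lie above the median of 1.29, and in WT the 7.3 h wave of *cr-1* (1.52) stands highest.

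The partners of these genes were counted from lists of the same pathways. Among 7 related kinases and casein kinase 2 subunits, 0 passed the strain test, against 21.8% of all genes, with a median log2 fold change of 0.06. *ckb-2*, the other regulatory subunit gene of casein kinase 2, averaged 109 ± 15.5 CPM in ΔMSN1 and 93.5 ± 16.8 CPM in WT, a log2 fold change of 0.22 ± 0.08 (adjusted p = 0.0679 by edgeR). In late darkness it was 0.37 ± 0.11 higher (adjusted p = 0.0383), the only one of the 7 to pass there, against 12% of all genes, and leaving out 1 time lost that call for 0, 2, 4, 8, 12, 14, 16 or 22 h (adjusted p 0.0520 to 0.165), as did DESeq2 (0.0541), its size factors (0.0617) and the fit without time (0.0815). *ck-1b*, the second casein kinase 1 gene, had 0.11 ± 0.07 (adjusted p = 0.281), and *pkac-2* −0.00043 ± 0.06 (adjusted p = 0.998).

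Among 5 phosphatase genes 0 passed (median −0.06), and among 10 genes of the SCF ligase and of the COP9 signalosome that regulates it 0 passed (median 0.07), against the same 21.8% of all genes. Of 14 tested genes of G protein and cAMP signalling, 1 rose and 1 fell, with a median of 0.06, so the share called did not exceed the 21.8% of all genes. *cpc-2*, the relative of the scaffold protein RACK1, fell to 645 ± 104 CPM in ΔMSN1, against 800 ± 70.0 CPM in WT (log2 fold change −0.32 ± 0.08, adjusted p = 0.0128 by edgeR). The call ended when library totals replaced TMM (−0.15, adjusted p = 0.273). *acon-2* rose to 2.52 ± 0.676 CPM in ΔMSN1, against 1.84 ± 0.249 CPM in WT (0.51 ± 0.14, adjusted p = 0.0232), a call lost by DESeq2 (0.206), with the length trend taken out (0.0532) and without 8, 18 or 22 h (0.0559 to 0.0769). Its WT mean lay under the filter of 2 CPM, so *acon-2* was tested only through its level in ΔMSN1.

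Of 6 genes of the DNA damage checkpoint, to which PRD-4 belongs, 1 rose, against 11.9% of all genes called higher, and 5 were positive with a median log2 fold change of 0.23. That was *mus-9*, the relative of the kinase ATR, at 2.82 ± 0.913 CPM in ΔMSN1 and 1.95 ± 0.293 CPM in WT (0.54 ± 0.14, adjusted p = 0.0137 by edgeR, 0.156 by DESeq2, and 0.0530 without 10 h). The WT mean of *mus-9* lay under the filter of 2 CPM, so it was tested only through its level in ΔMSN1. Of the 4 genes of the clock loop itself, 1 was called, against 21.8% of all genes, and rose. That was *wc-2*, which codes for a member of the white collar complex, at 30.6 ± 5.36 CPM in ΔMSN1 and 25.2 ± 4.20 CPM in WT (0.28 ± 0.07, adjusted p = 0.0116 by edgeR). *frq* had −0.19 ± 0.11 (adjusted p = 0.224). Of 5 tested conidial markers (median −0.42) 2 were positive, and 1 was called, against 21.8% of all genes, and fell. That was the hydrophobin gene *eas*, which averaged 1448 ± 1177 CPM in ΔMSN1 and 2584 ± 1455 CPM in WT (−0.88 ± 0.25, adjusted p = 0.0187 by edgeR, and 0.151 in the fit without time). The part of spore formation in the values of the 8 genes was not tested. In WT, *con-8*, a conidiation gene, fell in late against early darkness by 1.25 on the log2 scale (adjusted p = 0.0269 by edgeR, against 2.17% of all genes called, and 0.0502 to 0.0670 without 2, 4, 14 or 22 h), and no other gene of these lists passed in it.

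The genes whose profiles were most like each of the 8 were sought among 1016 named genes, by Pearson's r of log2(CPM + 1), centred within each strain, over the 24 libraries. These r are descriptions, since all genes share the libraries, their depth and their length trend. The nearest to *fwd-1* were *gh38-1* (r = 0.91), *mss4* (0.87) and *rco-1* (0.86), and the nearest to *cr-1* were *crf3-1* (0.90), *eat-3* (0.90) and *atrx* (0.89). *prd-4* was nearest to the kinase genes *stk-34* (0.88) and *stk-20* (0.87) and to *gdh-1* (0.84). *pkac-1* was nearest to *gh31-2* (0.82), *arg-6* (0.82) and *mus-41* (0.81). These partners were long genes, of 3231 to 8236 bp, where the median tested gene has 2362 bp. *ck-1a* was nearest to *prk-10* (0.83), *gh2-3* (0.76) and *ecd-1* (0.75), which were long as well, at 3640 to 3860 bp. *cka* was nearest to *pcn* (0.80), *alf1* (0.75) and *csn-1* (0.74), the last from the COP9 signalosome. *ckb-1* was nearest to *camk-1* (0.70), *mob-1* (0.65) and *cys-14* (0.60), and *mcb* to *gh3-1* (0.62), *acw-5* (0.57) and *stk-57* (0.57). The partners of *cka*, *ckb-1* and *mcb* had 1492 to 4414 bp. Of the 8 genes themselves, *ck-1a* has 4047 bp, *mcb* 3702 bp, *cka* 2347 bp and *ckb-1* 2046 bp. *cr-1* has 9357 bp, *fwd-1* 4179 bp, *pkac-1* 3581 bp and *prd-4* 3214 bp. Between the 8 genes the highest r was that of *prd-4* and *fwd-1* (0.66), and the lowest that of *cka* and *fwd-1* (−0.67). The subunit pairs had r of 0.27 for *cka* and *ckb-1* and 0.37 for *mcb* and *pkac-1*.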

How the data were processed

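Poly(A) libraries of total RNA were analysed from the tables that the authors deposited, 1 per strain, which hold estimated counts per gene from 24 libraries. The submitters' processing notes name kallisto 0.43.1, and which genome build was used is not stated in the sources read here. Each library sums to a whole number while its values are not whole, and in 343 genes with at least 3 libraries within 5% of the smallest value above 0, that value fell with gene length (slope −1.325 on ln scales). The estimated counts thus behave as scaled per length, a scaling not given in the sources used here, and the number of reads behind a value is unknown. Sample titles, which quote the column names, gave strain and time, and 0 columns were left unmapped. Gene names came from the reference table (9729 of 9730 genes matched), which was not used for coordinates.

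Values were rounded and tested with edgeR 4.0.16 (quasi-likelihood F test, TMM, R 4.3.3) in genes averaging 2 CPM or more. P-values were adjusted by Benjamini-Hochberg over all tested genes, with thresholds of 0.05 and, for rhythms, 0.1. Strain effects had time as a factor, rhythms 6 cosine and sine terms. DESeq2 1.42.0, limma 3.58.1 (voom), DESeq2's size factors, no filter, a mean of 5 CPM, values times gene length, no time factor and leaving out each time were alternatives. Fits with the length trend taken out (a slope per library on log length) and with library totals in place of TMM were added after seeing the data. Intervals are 95% and come from the fit. The tests were checked on simulated data. Python 3.11.15 was used for levels and figures. Levels of lists are counts of genes past the test. In lists, names unmatched in the reference table were left out (25 names gave 15 genes of G protein and cAMP signalling, and 14 gave 10 of the SCF ligase and COP9 signalosome). From each list every gene past the test was named, and for likeness the 3 nearest named genes. The 8 genes and the lists were chosen with earlier results of these data known.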

Additional observations from a re-analysis of the deposited data

How the results depend on the processing

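Across 12 libraries per strain the depth limits the low genes most, *cr-1* whose libraries held 13 to 146 estimated counts in ΔMSN1 and 22.0 to 71.1 in WT. The count of the 8 genes past the strain test, 1 (*ckb-1*), was 0 with DESeq2's size factors, with DESeq2 and with values times gene length, 0 to 1 when 1 time was left out, and 2 with library totals. In early darkness it was 1, in place of 0, with the length trend taken out and with library totals, each time *ckb-1*. In the other comparisons it was 0 in every alternative run. The fit without time, which has no replicate block, called *ckb-1* and 1495 genes, in place of 1596, and changed no call of the 8 genes. Library totals called 2655 genes in the strain effect, 2378 higher and 277 lower, in place of 870 and 726, and 1440 in early darkness (1317 and 123, in place of 325 and 278). In late darkness it gave 844 and 273, in place of 466 and 412. The cause of these changes was not tested.

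All-gene counts that moved by over 1.5 times were as follows. The difference between late and early strain effects (14 genes) gave 50 with DESeq2, 27 with library totals and 6 to 32 without 1 time. Late against early darkness gave 284 with DESeq2 and 74 to 250 without 1 time in WT (157), and in ΔMSN1 (3) 25 with DESeq2, 6 with library totals, and 2 to 9 without 1 time. The strain effect gave 298 to 717 in early (603) and 507 to 1002 in late darkness (878) without 1 time. Rhythms in WT (23) gave 308 with DESeq2, 6 with limma-voom, 58 with values times gene length and 0 to 454 without 1 time. Rhythms in ΔMSN1 (3) gave 192 with DESeq2, 5 with the length trend taken out, 1 with library totals and 0 to 82 without 1 time. The difference in rhythm (1) gave 36 with DESeq2, 4 with values times gene length, 0 with limma-voom or library totals, and 0 to 13 without 1 time.

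Signs turned in 36 values outside the leave-out fits, all of genes that passed no test there, at adjusted p from 0.0809. With library totals, the strain effect was 0.14 for *ck-1a*, 0.13 for *pkac-1* and 0.17 for *mcb*, the strain effect in early darkness was 0.21 for *ck-1a*, 0.19 for *cka* and 0.20 for *mcb* and the strain effect in late darkness was 0.063 for *ck-1a*, 0.043 for *fwd-1* and 0.027 for *pkac-1*. The difference between late and early strain effects was −0.026 for *prd-4* and −0.070 for *mcb*, late against early darkness in ΔMSN1 was −0.048 for *ckb-1*, −0.021 for *prd-4* and −0.059 for *mcb* and late against early darkness in WT was 0.023 for *cka*. With the length trend taken out, the strain effect in early darkness was −0.046 for *pkac-1* and the difference between late and early strain effects was 0.032 for *ck-1a*. Late against early darkness in ΔMSN1 was −0.00015 for *ckb-1* and 0.017 for *cr-1* and late against early darkness in WT was −0.0059 for *prd-4* and −0.034 for *mcb*. Without a filter, the strain effect was 0.0031 for *mcb*, the strain effect in early darkness was 0.0034 for *ck-1a* and late against early darkness in WT was −0.011 for *mcb*. At 5 CPM, the strain effect was 0.00068 for *mcb*, the strain effect in early darkness was 0.0039 for *ck-1a* and late against early darkness in WT was 0.0031 for *cka*. With DESeq2's size factors, the strain effect in early darkness was −0.012 for *pkac-1* and the strain effect in late darkness was −0.0061 for *mcb*. With DESeq2, the strain effect in early darkness was −0.017 for *pkac-1* and the strain effect in late darkness was −0.0085 for *mcb* and −0.022 for *cr-1*. With limma-voom, the strain effect in early darkness was −0.0036 for *pkac-1*. With values times gene length, the strain effect in early darkness was −0.0080 for *pkac-1*, the strain effect in late darkness was −0.032 for *cr-1* and late against early darkness in WT was −0.0044 for *mcb*.

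Leaving out 1 time turned signs for 19 results. The strain effect ran between −0.037 and 0.019 for *mcb* and −0.021 and 0.15 for *fwd-1*. The strain effect in early darkness ran between −0.13 and 0.041 for *cka*, −0.039 and 0.023 for *ck-1a*, −0.074 and 0.029 for *mcb*, −0.079 and 0.084 for *pkac-1* and −0.028 and 0.20 for *prd-4*. The strain effect in late darkness ran between −0.014 and 0.032 for *mcb*, −0.16 and 0.042 for *fwd-1* and −0.13 and 0.21 for *cr-1*. The difference between late and early strain effects ran between −0.063 and 0.15 for *prd-4* and −0.018 and 0.070 for *mcb*. Late against early darkness in ΔMSN1 ran between −0.051 and 0.16 for *prd-4*, −0.016 and 0.067 for *mcb*, −0.033 and 0.043 for *ckb-1* and −0.14 and 0.067 for *cr-1*. Late against early darkness in WT ran between −0.069 and 0.027 for *cka*, −0.051 and 0.061 for *mcb* and −0.066 and 0.068 for *prd-4*.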
